A study of Homo sapiens with 12 samples.

Results

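EndoC-βH1 cells at passage 75 were compared with the same line at passage 74. A passage is one round of subculture, and EndoC-βH1 is a human beta-cell line derived from fetal pancreas, immortalised with SV40 large T antigen and telomerase, that makes and secretes insulin. The comparison takes 8 of the 12 libraries of polyadenylated RNA in the study, the 4 of replicate 3 at passage 75 and the 4 of replicate 2 at passage 74. Each set of 4 holds one library per condition: TUNAR siRNAs with 1-AKP, negative siRNA with 1-AKP, TUNAR siRNAs with DMSO, and negative siRNA with DMSO. TUNAR is a neural and islet transcript first described as a long noncoding RNA, and 1-AKP is an inhibitor of the kinase GSK3. Treatment began 2 days after transfection and lasted 24 hours, with 1-AKP at 5 µM or DMSO at 1:1000. Libraries were chosen by their number alone, and a library at passage 75 was matched with the library at passage 74 of its own condition, which gives 4 pairs. The 4 replicate 1 libraries, also from passage 74, were left out of the contrast and serve below as a scale. Every library of passage 75 carries the number 3, so passage, replicate number and anything else the numbers share cannot be told apart. The labels do not say whether the 4 libraries of a number came from separate cultures, so each p-value reflects the spread among these libraries, which may be technical. That spread was largely shared across genes in the fit, and so was the SE. If a number stands for 1 culture that was then divided, each passage is 1 culture.

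Cells of a continuously cultured line can drift with subculture, through changes in growth rate, in the mix of clones or in the state of differentiation. In a beta cell the differentiated state rests on insulin, the granule proteins that package it and the transcription factors that switch both on. Large T antigen drives proliferation by binding p53 and the RB proteins. Library totals ranged from 15852991 to 15986834 expected counts, and after a filter against low counts 15995 genes were tested. Levels are given as CPM, counts scaled to a common library total. Beta-cell markers summed to 25265 to 27478 CPM at passage 75 and to 24917 to 26856 CPM at passage 74. Summed fibroblast markers reached 4.54 CPM at passage 75 and 5.38 CPM at passage 74, and endothelial markers 4.14 CPM at passage 75 and 3.95 CPM at passage 74. The acinar marker CTRB1 was at 0 in all 8 libraries. Another, CPA1, had 23.4 to 29.1 CPM at passage 75 and 28.5 to 33.2 CPM at passage 74. PTPRC, the pan-leukocyte marker, did not exceed 1.28 CPM. The blood markers CD68 and LYZ reached 34.4 and 16.4 CPM at passage 75, and 42.6 and 16.4 CPM at passage 74. Duct markers summed to 59.4 to 67.9 CPM at passage 75 and 52.5 to 64.5 CPM at passage 74. Alpha-cell markers, mostly TTR, summed to 1101 to 1261 CPM at passage 75 and 1227 to 1424 CPM at passage 74. From here on, CPM include a scaling of the libraries by trimmed means, and sets of 4 values are in the order of the conditions above. In bulk RNA, fewer cells of a type and less RNA per cell cannot be told apart.

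Between passage 75 and passage 74, 745 of 15995 genes (4.66%) differed at a Benjamini-Hochberg adjusted p below 0.05 in edgeR's quasi-likelihood test, and these genes are here termed called. Of them 311 rose (1.94% of genes tested) and 434 fell (2.71%). Calls were more frequent at high levels: in the highest of 5 equal bins of mean log2 CPM, 158 of 3199 genes rose and 207 fell. The shares of gene lists below are set against all genes tested, without matching for level. The changes were small: the median size of a called change was 0.15 on the log2 scale, or 11.1%, and over all genes tested the median change was 0.00 and the median size 0.06. A size of 0.5 or more was reached by 33 called genes and a size of 1 or more by 10. Of those 10 genes, 8 had a count of 0 in at least 1 library and 3 were read-through loci, which join the exons of neighbouring genes, so their fold changes are uncertain. All 4 pairs moved one way in 693 of the 745 called genes and in 3671 of all genes tested (23%). In 195 called genes, 91 risen and 104 fallen, no library of one passage overlapped those of the other, and over all genes tested this held for 530 (3.31%). The count fell to 319 without the TUNAR siRNAs, DMSO pair and to 485 without the TUNAR siRNAs, 1-AKP pair, and 216 genes stayed called whichever pair was left out. Without the matching by condition no gene was called by edgeR, with 729 genes at an unadjusted p below 0.05, and DESeq2 with the matching called 216.

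**Figure D1:**
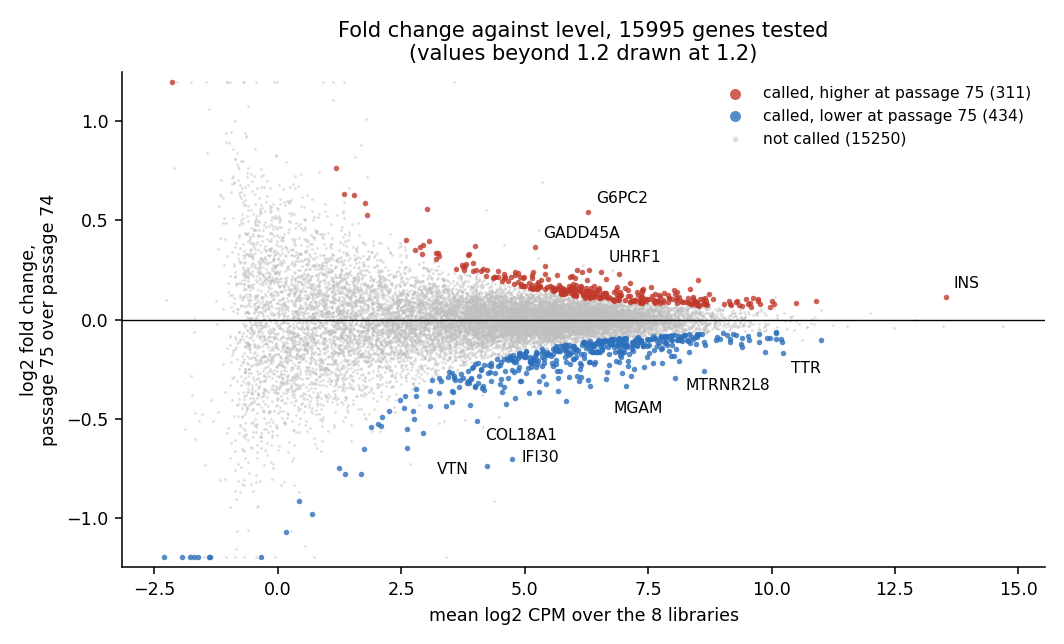
Log2 fold change of passage 75 over passage 74 (vertical axis) against mean log2 CPM (horizontal axis) for the genes tested, one point per gene, with called genes in red (higher) or blue (lower) and values beyond 1.2 drawn at 1.2. Most called genes lie close to 0, with a median size of 0.15, and the larger changes are few.

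G6PC2, the islet glucose-6-phosphatase that opposes glucokinase, was among the genes with the largest rise. It had 192, 223, 45.3 and 43.9 CPM at passage 75, against 144, 153, 27.7 and 26.4 CPM at passage 74. In each condition the library at passage 75 was the higher one, while the sets overlapped because both libraries with 1-AKP lay far above those with DMSO (log2 fold change 0.54, SE 0.040, adjusted p = 6.9e-09). The replicate 1 libraries averaged 21.9 CPM. GADD45A, a stress-inducible gene that restrains the cell cycle and is a target of p53, had 40.7, 38.1, 46.3 and 43.1 CPM at passage 75, against 31.7, 29.8, 36.3 and 32.96 CPM at passage 74. All 4 values at passage 75 lay above all 4 at passage 74 (log2 fold change 0.36, SE 0.045, adjusted p = 1.9e-07), and replicate 1 averaged 34.2 CPM. C2CD4A, a nuclear factor gene near a type 2 diabetes locus, had 21, 20.3, 14.3 and 11.7 CPM at passage 75, against 17.7, 15.9, 10.5 and 9.56 CPM at passage 74 (log2 fold change 0.33, SE 0.071, adjusted p = 0.0019), higher at passage 75 in each pair. The transcribed pseudogene DDX12P also rose (log2 0.37, adjusted p = 3.3e-04), as did the read-through locus MICOS10-NBL1 (log2 0.56, adjusted p = 1.3e-04). These 5 genes held without any 1 pair, and DDX12P shares sequence with expressed helicase genes, so its counts are uncertain.

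The other 7 of the 12 largest rises lost their call when some pair was left out. They were AS3MT, an arsenic methyltransferase (log2 0.39), the pseudogenes EGFEM1P (0.37) and MSTO2P (0.34), DUSP10, a phosphatase of stress kinases (0.37), GJC1, a gap junction protein (0.35), and the antisense transcripts SGO1-AS1 (0.33) and EMC3-AS1 (0.32). AS3MT lost the call without the TUNAR siRNAs, DMSO pair or the negative siRNA, 1-AKP pair (adjusted p = 0.25 and 0.064). DUSP10 kept the call when the negative siRNA, 1-AKP pair was left out but not without any other pair (adjusted p between 0.052 and 0.27). GJC1 kept the call when the negative siRNA, 1-AKP pair was left out but not without any other pair (adjusted p between 0.12 and 0.29). EGFEM1P lost the call without the negative siRNA, DMSO pair or the TUNAR siRNAs, DMSO pair (adjusted p = 0.17 and 0.11), and MSTO2P lost the call without the negative siRNA, DMSO pair or the TUNAR siRNAs, DMSO pair (adjusted p = 0.19 and 0.11). SGO1-AS1 lost the call without the negative siRNA, DMSO pair or the TUNAR siRNAs, DMSO pair (adjusted p = 0.077 and 0.30), and EMC3-AS1 lost the call without the TUNAR siRNAs, 1-AKP pair (adjusted p = 0.25). No strand marking is stated, so reads of an antisense gene and of its partner cannot be told apart.

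VTN, which encodes the adhesive plasma and matrix protein vitronectin, had the largest fall by the naming rule, which leaves out genes of low level and genes whose pairs disagree. It had 11.8, 14.2, 15.8 and 16.7 CPM at passage 75, against 21.3, 22.9, 27.05 and 26.6 CPM at passage 74. The ranges lay clear of each other (log2 fold change -0.74, SE 0.063, adjusted p = 8.2e-12), and replicate 1 averaged 48.2 CPM, above both. IFI30, a lysosomal thiol reductase of antigen processing, had 21.2, 22.8, 17.2 and 22.4 CPM at passage 75, against 32.1, 39.1, 30.1 and 34.7 CPM at passage 74. Again no library overlapped (log2 fold change -0.70, SE 0.054, adjusted p = 8.5e-13), and replicate 1 averaged 34.6 CPM. MS4A8, a membrane-spanning protein of the MS4A family, had 4.38, 5.09, 4.51 and 5.17 CPM at passage 75, against 6.71, 8.50, 6.89 and 8.01 CPM at passage 74 (log2 fold change -0.65, SE 0.11, adjusted p = 1.1e-04). COL18A1, the basement-membrane collagen that yields endostatin, averaged 13.7 ± 1.89 CPM at passage 75 and 19.6 ± 2.75 CPM at passage 74 (SD, n = 4 each) with log2 -0.51, adjusted p = 9.7e-07. KCNJ16, a subunit of inward rectifier potassium channels (log2 -0.55, adjusted p = 0.0012), the guidance receptor PLXNA4 (log2 -0.46, adjusted p = 0.0046) and the pseudogenes ABCC6P2 (log2 -0.57, adjusted p = 1.5e-04) and CRYZL2P (log2 -0.50, adjusted p = 0.0016) fell too. All 8 held without any 1 pair. ANXA13, an epithelial annexin (log2 -0.53), FBP1, an enzyme of gluconeogenesis (-0.49), and the galectin LGALS2 (-0.46) fell in the fit of all 4 pairs. ANXA13 kept the call when the TUNAR siRNAs, 1-AKP pair was left out but not without any other pair (adjusted p between 0.061 and 0.13). LGALS2 kept the call when the negative siRNA, DMSO pair was left out but not without any other pair (adjusted p between 0.060 and 0.27). FBP1 lost the call without each pair in turn (adjusted p between 0.054 and 0.13).

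**Figure D2:**
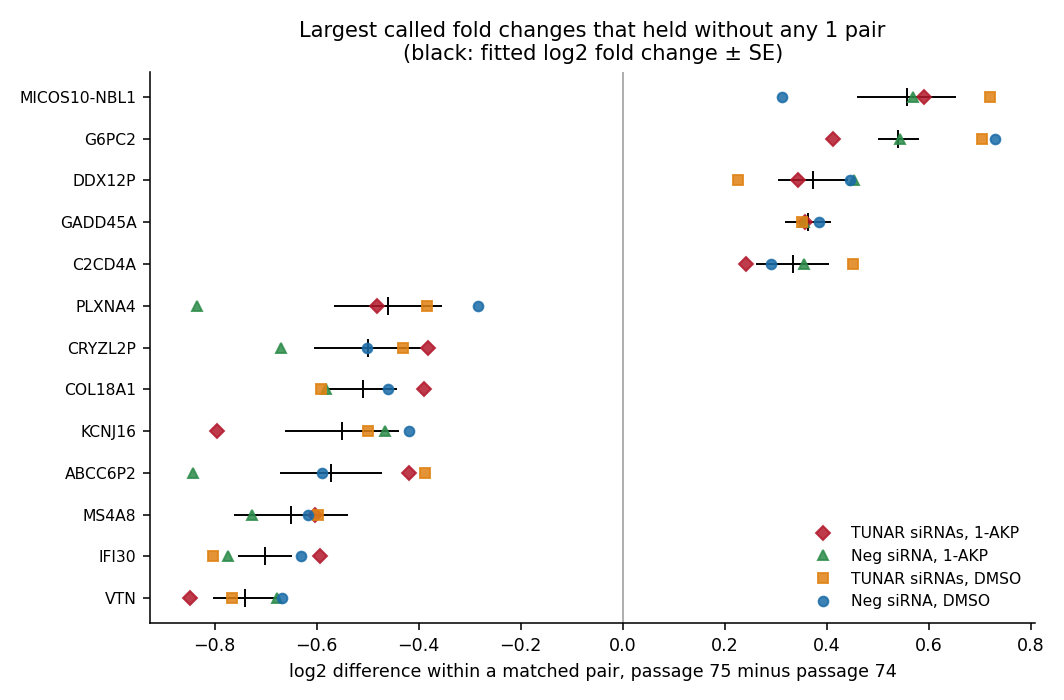
Log2 difference of passage 75 minus passage 74 in each of the 4 pairs (points, coloured by condition) for the 5 risen and 8 fallen genes of largest change that held without any 1 pair, with genes down the page, the difference on the horizontal axis and the fitted log2 fold change ± SE in black. The points of G6PC2 and GADD45A lie right of 0 and those of VTN and IFI30 left of 0 in all 4 pairs, as the naming rule requires.

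Among the genes of the beta-cell state, INS and IAPP rose and 4 granule genes fell, by little. INS had 12852, 11815, 12439 and 11875 CPM at passage 75, against 11975, 11178, 11633 and 10603 CPM at passage 74 and was higher at passage 75 in all 4 pairs (log2 fold change 0.11, SE 0.017, adjusted p = 1.4e-05), with a replicate 1 mean of 9361 CPM. The read-through locus INS-IGF2 shares INS sequence, so the division of reads between them is uncertain. Of 21 genes for granule peptides and proinsulin processing 2 rose and 4 fell, with a median of -0.04 against 0.00 over all genes. Over all genes tested 1.94% rose and 2.71% fell. IAPP, the islet amyloid peptide released with insulin, was the other to rise. It had 47.3, 54.4, 81.9 and 105 CPM at passage 75, against 42.3, 53.6, 75.5 and 94.3 CPM at passage 74 (log2 fold change 0.12, SE 0.036, adjusted p = 0.046), and it kept the call when the negative siRNA, 1-AKP pair was left out but not without any other pair (adjusted p between 0.14 and 0.26). PTPRN, a transmembrane protein of the granule wall, averaged 649 ± 8.30 CPM at passage 75 and 714 ± 15.02 CPM at passage 74 (log2 -0.14, adjusted p = 8.7e-06). The granins SCG2 (log2 -0.16, adjusted p = 8.7e-06) and CHGB (log2 -0.11, adjusted p = 3.3e-04) fell as well, in all 4 pairs. PCSK1N, which inhibits the prohormone convertase PCSK1, fell by less (log2 -0.08, adjusted p = 0.0052), and it lost the call without the TUNAR siRNAs, DMSO pair (adjusted p = 0.060). SLC30A8, the zinc transporter that loads the granule for insulin crystals, averaged 638 ± 45.01 CPM at passage 75 and 697 ± 57.7 CPM at passage 74 (log2 fold change -0.13, SE 0.020, adjusted p = 3.2e-05). With replicate 1 included in passage 74, the fold changes of IAPP and SLC30A8 had the other sign, with values given in the last section.

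Of 21 beta-cell transcription factors 3 rose (against 1.94% of all genes tested), none fell and the median was 0.00. They were FOXA2 (log2 0.09, adjusted p = 0.030), MAFA (log2 0.13, adjusted p = 0.037) and INSM1 (log2 0.06, adjusted p = 0.048). MAFA, which binds the insulin promoter, had 71.1, 78.9, 101 and 107 CPM at passage 75, against 73.9, 72.7, 87.3 and 93.8 CPM at passage 74, and was lower at passage 75 in the TUNAR siRNAs, 1-AKP pair. MAFA kept the call when the TUNAR siRNAs, 1-AKP pair was left out but not without any other pair (adjusted p between 0.10 and 0.37). FOXA2 kept the call when the negative siRNA, 1-AKP pair was left out but not without any other pair (adjusted p between 0.062 and 0.20). INSM1 kept the call when the TUNAR siRNAs, 1-AKP pair was left out but not without any other pair (adjusted p between 0.11 and 0.27). PDX1, the master factor of pancreas and beta cells, averaged 314 ± 23.4 CPM at passage 75 and 312 ± 17.8 CPM at passage 74 (log2 0.01, adjusted p = 0.89). NKX6-1, which maintains beta-cell identity, averaged 103 ± 21.3 CPM at passage 75 and 104 ± 23.2 CPM at passage 74 (log2 -0.01, adjusted p = 0.92). Of 18 genes for glucose sensing and the KATP channel, G6PC2 rose and SLC30A8 fell. TUNAR itself had 13.6, 30.8, 8.08 and 17.6 CPM at passage 75, against 10.5, 30.9, 7.20 and 19.9 CPM at passage 74 (log2 fold change 0.05, SE 0.073, adjusted p = 0.82), lower under its siRNAs at both passages.

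Among the markers of other islet cells 2 of 8 fell, against 2.71% of all genes tested. TTR, the thyroid hormone carrier that is abundant in alpha cells, averaged 1142 ± 55.6 CPM at passage 75 and 1285 ± 72.8 CPM at passage 74 (log2 -0.17, adjusted p = 5.6e-09), and GC, the vitamin D carrier, differed at log2 -0.09, adjusted p = 0.017 and kept the call when the negative siRNA, 1-AKP pair was left out but not without any other pair (adjusted p between 0.062 and 0.22). GCG, the defining hormone of alpha cells, was not tested and reached 0.44 CPM at passage 75 and 0.25 CPM at passage 74, scaled by library totals alone. SST, the hormone of delta cells, had 5.58, 5.21, 6.51 and 4.61 CPM at passage 75, against 3.80, 4.03, 3.82 and 4.53 CPM at passage 74, with all values at passage 75 above those at passage 74 but without passing the threshold (log2 fold change 0.43, SE 0.14, adjusted p = 0.053), while replicate 1 averaged 29.8 CPM. FN1, the matrix protein fibronectin, rose (log2 0.25, adjusted p = 2.9e-05) and COL4A2, a collagen of basement membranes, fell (log2 -0.13, adjusted p = 0.0076) among 9 fibroblast and matrix genes. The acinar enzyme gene CPA1 fell (log2 -0.22, adjusted p = 0.0064), and so did CD68, a gene of macrophage lysosomes (log2 -0.26, adjusted p = 0.017). COL4A2 lost the call without the negative siRNA, 1-AKP pair (adjusted p = 0.092). CPA1 lost the call without the negative siRNA, 1-AKP pair (adjusted p = 0.059), and CD68 kept the call when the TUNAR siRNAs, 1-AKP pair was left out but not without any other pair (adjusted p between 0.059 and 0.17).

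Genes of DNA replication and mitosis were called in 1 direction, with small changes. Of 28 genes of S phase 15 rose and none fell (median 0.10), and of 28 genes of G2 and mitosis 12 rose and none fell (median 0.09), against 1.94% risen among all genes tested. UHRF1, which carries DNA methylation through replication, had 94.9, 105, 97.2 and 109.7 CPM at passage 75, against 74.05, 93.8, 78.5 and 99.1 CPM at passage 74 (log2 fold change 0.24, SE 0.034, adjusted p = 5.3e-06). Its values overlapped between the passages, since libraries with TUNAR siRNAs lay lower at both. MCM7, a subunit of the replicative helicase, averaged 445 ± 8.67 CPM at passage 75 and 408 ± 13.2 CPM at passage 74 (log2 0.13, adjusted p = 6.5e-05), and CCNE2, the cyclin that starts S phase, averaged 65.2 ± 2.39 CPM at passage 75 and 56.2 ± 2.02 CPM at passage 74 (log2 0.22, adjusted p = 1.3e-04). MCM4, the ribonucleotide reductase subunit RRM2 and the checkpoint adaptor CLSPN rose by 0.11, 0.09 and 0.16 on the log2 scale. The clamp PCNA (log2 0.09, adjusted p = 0.0038) lost the call without the TUNAR siRNAs, DMSO pair or the TUNAR siRNAs, 1-AKP pair (adjusted p = 0.061 and 0.083).

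In G2 and mitosis, TOP2A, the topoisomerase that disentangles chromosomes, had 732, 712, 791 and 731 CPM at passage 75, against 678, 674, 726 and 685 CPM at passage 74 (log2 fold change 0.10, SE 0.019, adjusted p = 3.6e-04). The proliferation antigen MKI67 averaged 249 ± 18.2 CPM at passage 75 and 229 ± 12.9 CPM at passage 74 (log2 0.12, adjusted p = 6.9e-04), and TPX2, a spindle assembly factor, averaged 219.9 ± 5.84 CPM at passage 75 and 202 ± 5.70 CPM at passage 74 (log2 0.12, adjusted p = 0.0012). CCNB1, the mitotic cyclin, averaged 105 ± 6.80 CPM at passage 75 and 96.8 ± 5.96 CPM at passage 74 (log2 0.12, adjusted p = 0.013), and it lost the call without the TUNAR siRNAs, DMSO pair or the negative siRNA, 1-AKP pair (adjusted p = 0.16 and 0.14). The number of calls changed with the pairs used more than the medians did. Without the TUNAR siRNAs, DMSO pair 7 genes of S phase and 3 of mitosis rose, and without the TUNAR siRNAs, 1-AKP pair 10 and 5. Without the negative siRNA, 1-AKP pair 9 and 8 rose, and without the negative siRNA, DMSO pair 11 and 9. Across these the list medians stayed between 0.09 and 0.10 for S phase and between 0.09 and 0.11 for mitosis. DESeq2 with all pairs called 6 and 3. Replicate 1, also from passage 74, averaged 1069 CPM for TOP2A, 267 CPM for MKI67 and 161 CPM for CCNB1, above both sets. None of the 12 genes of G1 control was called by edgeR, with 4 at an unadjusted p below 0.05, nor by limma or, among the 7 with an adjusted p there, by DESeq2. Among 12 p53 targets GADD45A and BAX rose and SESN2 fell, against 1.94% risen and 2.71% fallen among all genes tested. BAX, a mediator of apoptosis (log2 0.14, adjusted p = 0.035), kept the call when the negative siRNA, 1-AKP pair was left out but not without any other pair (adjusted p between 0.19 and 0.21), and SESN2, a stress-induced restraint on mTORC1 (log2 -0.12, adjusted p = 0.025), kept the call when the negative siRNA, DMSO pair was left out but not without any other pair (adjusted p between 0.077 and 0.26).

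Promoters of replication genes are known for binding sites of E2F factors, which RB proteins hold in check. RefSeq promoters of GRCh38.p14, 250 bases before to 50 after the start site, were searched on both strands for the E2F letters TTTCCCGC, TTTGGCGC, TTTCGCGC and TTTGCCGC, and a promoter was counted once, overlapping matches or not. Of 28 S phase genes tested 24 matched the promoter table, and 15 of those (62.5%) held the motif, against 767 of 12302 tested genes in the table (6.23%) and 1164 of 35116 promoters (3.31%). The risen genes with a promoter in the table numbered 12, of which 9 held it. The windows of 4 of them are shown to display the letters, in capitals on the gene's strand, where GCGGGAAA is the reverse complement of TTTCCCGC. They lie at chr19:4909973-4910002 (plus strand), chr7:100101566-100101595 (minus), chr20:5126663-5126692 (minus) and chr13:33818083-33818112 (plus).
UHRF1: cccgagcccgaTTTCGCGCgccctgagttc
MCM7: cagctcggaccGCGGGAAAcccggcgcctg
PCNA: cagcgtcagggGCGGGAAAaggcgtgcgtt
RFC3: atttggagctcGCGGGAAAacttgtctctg
The letters in capitals begin 160, 187, 59 and 55 bases before the start site. RFC3, a subunit of the loader of PCNA, averaged 77.5 ± 1.33 CPM at passage 75 and 71.3 ± 2.55 CPM at passage 74 (log2 0.12, adjusted p = 0.030), and it kept the call when the negative siRNA, DMSO pair was left out but not without any other pair (adjusted p between 0.061 and 0.22). A match describes the letters and no binding was measured.

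Of 21 genes of cholesterol synthesis and uptake 7 rose and none fell (median 0.05), against 1.94% risen among all genes tested. ACAT2, the cytosolic thiolase at the head of the pathway, averaged 149 ± 13.2 CPM at passage 75 and 131 ± 10.3 CPM at passage 74 (log2 fold change 0.18, SE 0.028, adjusted p = 9.4e-06). FDPS, the farnesyl diphosphate synthase, averaged 253 ± 10.8 CPM at passage 75 and 234 ± 7.57 CPM at passage 74 (log2 0.11, adjusted p = 0.0018). Both held without any 1 pair, while 3 genes of the list were called without the TUNAR siRNAs, DMSO pair, 3 without the TUNAR siRNAs, 1-AKP pair and 6 without each of the others, with list medians between 0.04 and 0.06. FADS1, a fatty acid desaturase, rose by 0.09 and SREBF1, the lipogenic transcription factor, by 0.07 on the log2 scale among 14 genes of fatty acid synthesis. SREBF1 kept the call when the negative siRNA, 1-AKP pair was left out but not without any other pair (adjusted p between 0.10 and 0.17), and FADS1 lost the call without the TUNAR siRNAs, DMSO pair (adjusted p = 0.091). The sterol element TCACNCCAC was present in the promoter of 1 of 14 matched sterol genes and in 177 of 12302 tested genes (1.44%), and in 0 of the 4 risen sterol genes with a promoter in the table.

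The lists of hnRNP and chromatin genes were assembled after the values were seen, so their counts only describe the calls. Over all genes tested 1.94% rose. Of 31 hnRNP and splicing factor genes 9 rose and none fell (median 0.06). HNRNPAB averaged 284 ± 16.7 CPM at passage 75 and 258 ± 15.2 CPM at passage 74 (log2 0.14, adjusted p = 1.1e-04), ALYREF, an mRNA export factor, averaged 82.01 ± 5.80 CPM at passage 75 and 71.4 ± 7.21 CPM at passage 74 (log2 0.20, adjusted p = 1.3e-04), and HNRNPA3 averaged 816 ± 40.9 CPM at passage 75 and 757 ± 30.9 CPM at passage 74 (log2 0.11, adjusted p = 2.5e-04). Of 26 genes of condensin, cohesin and Polycomb complexes 9 rose and none fell (median 0.06). SMC4, a core subunit of condensin, averaged 346 ± 17.5 CPM at passage 75 and 311 ± 17.7 CPM at passage 74 (log2 0.15, adjusted p = 9.2e-06), NCAPG2, a condensin II subunit, 238 ± 14.99 CPM at passage 75 and 217 ± 12.02 CPM at passage 74 (log2 0.14, adjusted p = 2.9e-04), and BMI1, a Polycomb ubiquitin ligase subunit, 47 ± 4.03 CPM at passage 75 and 39.1 ± 4.40 CPM at passage 74 (log2 0.27, adjusted p = 9.1e-05). Without the TUNAR siRNAs, DMSO pair 4 of the hnRNP list and 3 of the chromatin list were called, and the chromatin list had 5 when either of the 1-AKP pairs was left out. The highest counts with 1 pair left out were 8 and 7, and the medians stayed between 0.05 and 0.07 for the hnRNP list and between 0.06 and 0.07 for the chromatin list. In ribosome biogenesis 3 of 20 genes rose (median 0.06), led by DKC1, the pseudouridine synthase dyskerin (log2 0.14, adjusted p = 0.0017).

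Of 56 genes for lysosomal proteins, a list also assembled after the values were seen, 24 fell and none rose (median -0.11, against 2.71% fallen among all genes tested). After IFI30 the lowest p belonged to GRN, which encodes progranulin, a secreted growth factor processed in lysosomes. GRN had 151, 151, 156 and 168 CPM at passage 75, against 181, 184, 188 and 186 CPM at passage 74 (log2 fold change -0.24, SE 0.027, adjusted p = 2.3e-08), with no overlap between the passages. NPC2, which carries cholesterol out of the lysosome, had 119.9, 129.9, 106 and 105 CPM at passage 75, against 145, 143, 136 and 132 CPM at passage 74 (log2 fold change -0.27, SE 0.031, adjusted p = 9.7e-08), also without overlap. The peptidase CTSA, which stabilises lysosomal enzymes, averaged 303 ± 30.7 CPM at passage 75 and 339.8 ± 34.2 CPM at passage 74 (log2 -0.16, adjusted p = 1.2e-06), and the protease CTSD 254 ± 5.04 CPM at passage 75 and 281 ± 3.28 CPM at passage 74 (log2 -0.15, adjusted p = 2.4e-05). PSAP, the precursor of the saposins, was the most abundant of those fallen, at 1136 ± 6.81 CPM at passage 75 and 1229 ± 26.3 CPM at passage 74 (log2 -0.11, adjusted p = 5.5e-05). The glycosidases GLB1, MANBA and NEU1 fell by 0.17, 0.18 and 0.16 on the log2 scale, and the membrane protein LAMP2 dropped by 0.13. Leaving out 1 pair gave between 17 and 24 fallen genes, DESeq2 called 16 and limma 6. The 3 blood markers measured summed to 37.97 to 49.4 CPM at passage 75 and to 39.7 to 57.003 CPM at passage 74, most of it CD68 and LYZ, with PTPRC near 0, and their part in the lysosomal values was not tested. None of the 15 subunit genes of the V-ATPase, the proton pump that acidifies the lysosome, was called by edgeR, DESeq2 or limma (median -0.05), and 5 had an unadjusted p below 0.05.

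The CLEAR letters TCACGTGA, the core of sites bound by TFEB and related factors in lysosomal promoters, were searched in the same way on both strands. Of 38 lysosomal genes with such a promoter, 6 held them (15.8%), against 252 of 12302 tested genes (2.05%). Among the 24 fallen genes 15 matched, of which 2 held the letters, CTSA at chr20:45891298-45891327 and PLBD2 at chr12:113358551-113358580, both on the plus strand. Their windows, with the letters in capitals, are shown because both genes fell.
CTSA: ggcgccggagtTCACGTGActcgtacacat
PLBD2: gcagagcgcagTCACGTGAcccgggctgcg
PLBD2, a phospholipase-like protein of the lysosome, averaged 82.8 ± 12.3 CPM at passage 75 and 92.8 ± 12.3 CPM at passage 74 (log2 -0.16, adjusted p = 0.0012).

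The lists of secreted plasma proteins and of brush border genes were likewise assembled after the values were seen. Over all genes tested 2.71% fell. Of 19 plasma and coagulation genes 9 fell and none rose (median -0.20). Apart from VTN and TTR these included CLU, the extracellular chaperone clusterin, at 882 ± 47.6 CPM at passage 75 and 988 ± 35.6 CPM at passage 74 (log2 -0.16, adjusted p = 4.3e-08). F10, coagulation factor X, had 87.9, 94.7, 88.2 and 100.2 CPM at passage 75, against 104, 119, 104 and 118 CPM at passage 74 (log2 fold change -0.26, SE 0.031, adjusted p = 4.5e-08), with the ranges apart. APOB, the structural protein of lipoproteins (log2 -0.31, adjusted p = 6.6e-07), SERPINA1, the antitrypsin (log2 -0.23, adjusted p = 1.6e-06), and APOC3, an inhibitor of lipoprotein clearance (log2 -0.37, adjusted p = 2.2e-05), held without any 1 pair. Of 19 brush border and gut epithelial genes 10 fell and none rose (median -0.14). MGAM, the maltase-glucoamylase of the intestinal brush border, had 112, 113, 120.3 and 125 CPM at passage 75, against 141, 147, 147 and 157 CPM at passage 74 (log2 fold change -0.33, SE 0.028, adjusted p = 5.7e-12), with all values at passage 75 below all at passage 74 and replicate 1 at 165 CPM on average. AMN, the partner of cubilin in vitamin B12 uptake, averaged 90.01 ± 7.12 CPM at passage 75 and 111 ± 6.95 CPM at passage 74 (log2 -0.30, adjusted p = 1.7e-09). The adhesion protein CEACAM1 (log2 -0.31, adjusted p = 4.8e-08), the microvillar myosin MYO7B (log2 -0.36, adjusted p = 1.1e-07), the guanylin receptor GUCY2C (log2 -0.33, adjusted p = 6.6e-07) and the cadherins CDHR5 (log2 -0.29, adjusted p = 1.3e-06) and CDH17 (log2 -0.22, adjusted p = 5.5e-06) fell in all 4 pairs. VIL1, the actin bundler villin, averaged 656 ± 16.7 CPM at passage 75 and 701 ± 10.7 CPM at passage 74 (log2 -0.09, adjusted p = 0.0023), and it lost the call without the TUNAR siRNAs, 1-AKP pair (adjusted p = 0.13).

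Of 9 MTRNR2L loci, nuclear copies of the mitochondrial 16S ribosomal RNA gene, 6 fell and none rose (median -0.29). Over all genes tested 2.71% fell, and this list too was made after the values were seen. MTRNR2L8 had 241, 210.3, 276 and 235 CPM at passage 75, against 293, 267, 333 and 289.7 CPM at passage 74 (log2 fold change -0.30, SE 0.023, adjusted p = 1.0e-12). MTRNR2L2, the most abundant, had 364, 324, 419 and 358 CPM at passage 75, against 436, 402, 488 and 429 CPM at passage 74 (log2 fold change -0.26, SE 0.021, adjusted p = 3.6e-12). Each pair was lower at passage 75, and the sets overlapped for both loci. Reads of the mitochondrial transcript could be counted at these near-identical loci, so the counts are uncertain. None of 13 mitochondrially encoded genes sought was matched by symbol, so these genes were not analysed here. The nuclear ribosomal RNA gene RNA28SN5 ranged from 22959 to 28307 CPM at passage 75 and from 25379 to 28055 CPM at passage 74 (adjusted p = 0.90). Another such gene, RNA18SN5, was chosen for mention after its values were seen. Its pair differences were -0.03, -0.20, 0.07 and -0.27 on the log2 scale. The passage contrast of RNA18SN5 differed between TUNAR siRNAs and negative siRNA by 0.25 (edgeR interaction test, adjusted p = 0.0044).

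**Figure D3:**
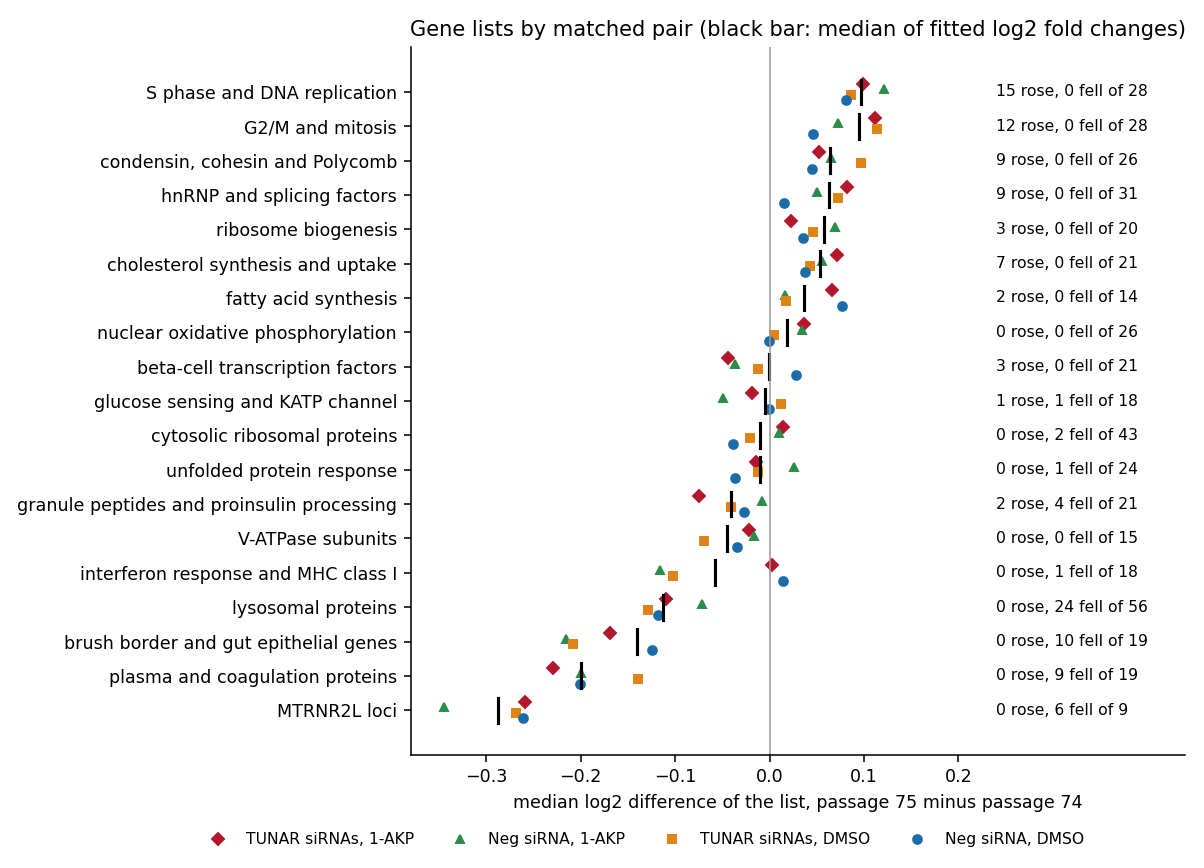
Median log2 difference of passage 75 minus passage 74 (horizontal axis) over the tested members of gene lists, one point per pair, with lists down the page, a black bar at the median fitted fold change and counts of called genes on the right. The pair medians of the lysosomal, plasma and brush border lists lie below 0 and those of the S phase and mitosis lists above it.

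The other lists below had no more than 2 members called in either direction, while over all genes tested 1.94% rose and 2.71% fell. Where such a list had a call, its share in that direction lay above that of all genes. These shares ran from 4.17% fallen for the unfolded protein response to 16.7% fallen for metallothionein and zinc transport genes, and rest on 1 or 2 genes each. No member was called among 26 genes of oxidative phosphorylation, 17 immediate early genes, 12 heat shock genes, 12 Wnt targets and 8 NF-kB genes. Together with G1 control and the V-ATPase these 7 lists held 101 genes, of which 21 had an unadjusted p below 0.05 in edgeR and none was called by limma or, among the 65 with an adjusted p there, by DESeq2. Of 43 cytosolic ribosomal protein genes 2 fell, RPL3 (log2 -0.07, adjusted p = 0.021) and RPL13A (log2 -0.09, adjusted p = 0.035). RPL3 kept the call when the negative siRNA, 1-AKP pair was left out but not without any other pair (adjusted p between 0.071 and 0.19), and RPL13A kept the call when the negative siRNA, DMSO pair was left out but not without any other pair (adjusted p between 0.092 and 0.44). HLA-E, a ligand of natural killer receptors, fell (log2 fold change -0.21, SE 0.029, adjusted p = 2.6e-06) as the only one of 18 interferon and MHC class I genes. Among 24 genes of the unfolded protein response the chaperone CALR fell (log2 -0.10, adjusted p = 0.0011), and it lost the call without the TUNAR siRNAs, DMSO pair or the TUNAR siRNAs, 1-AKP pair (adjusted p = 0.073 and 0.054). The ferritin genes FTL (log2 -0.10, adjusted p = 1.7e-04) and FTH1 (log2 -0.09, adjusted p = 0.0012) fell and the thioredoxin reductase TXNRD1 rose (log2 0.09, adjusted p = 0.015) among 17 NRF2 targets. FTH1 lost the call without the TUNAR siRNAs, DMSO pair (adjusted p = 0.055), and TXNRD1 lost the call without the TUNAR siRNAs, DMSO pair or the TUNAR siRNAs, 1-AKP pair (adjusted p = 0.054 and 0.21). The BMP target ID1 (log2 -0.23, adjusted p = 0.016) and the SMAD corepressor SKIL (log2 -0.15, adjusted p = 0.029) fell among 14 targets of TGF-beta and YAP. ID1 kept the call when the negative siRNA, DMSO pair was left out but not without any other pair (adjusted p between 0.051 and 0.20), and SKIL kept the call when the TUNAR siRNAs, 1-AKP pair was left out but not without any other pair (adjusted p between 0.053 and 0.25). Of 15 imprinted genes the maternally expressed noncoding RNA MEG3 rose, at 199 ± 14.5 CPM at passage 75 and 177 ± 11.2 CPM at passage 74 (log2 0.16, adjusted p = 2.3e-05), and the paternally expressed growth factor IGF2 fell, at 1139 ± 102 CPM at passage 75 and 1221 ± 125 CPM at passage 74 (log2 -0.10, adjusted p = 6.2e-04). In 19 neural genes STMN2, a regulator of microtubules in axons, fell (log2 -0.12, adjusted p = 0.0013). The integrated stress response had 1 risen and 1 fallen of 24 genes, glycolysis and hypoxia 1 and 1 of 21, and the replication-dependent histones 1 and 1 of 8. Of 6 metallothionein and zinc transport genes SLC30A8 fell.

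The passage contrast was also tested for a difference between treatments and between siRNAs. Between 1-AKP and DMSO it differed in 30 of 15995 genes (0.188%), and between TUNAR siRNAs and negative siRNA in 16 (0.1%). A count of 0 in at least 1 library occurred in 19 of the 30 and 8 of the 16, and 23 and 11 had such a count or were read-through loci. Of the 669 genes tested on any list, FASN was the only one called in either test. FASN, the fatty acid synthase, was chosen for mention after its values were seen. It had 1226, 1115, 1088 and 1073 CPM at passage 75, against 1149, 1153, 933 and 939 CPM at passage 74. The pair differences were 0.09 and -0.05 with 1-AKP, against 0.22 and 0.19 with DMSO, TUNAR siRNAs before negative siRNA, and the difference between treatments was -0.19 on the log2 scale (adjusted p = 0.013). With the 0-count, read-through and unnamed loci left out, an alternative chosen after seeing the data, 6 and 4 genes were called. An effect that passed in some conditions and not in others is not shown to differ between them.

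The replicate 1 libraries, from passage 74 like replicate 2, set a scale for these changes. The comparisons below share libraries with each other, so their values are given side by side. Replicate 2 differed from replicate 1, both at passage 74, in 4940 of 16038 genes (30.8%), with 2558 higher and 2382 lower and a median size of 0.23 on the log2 scale. Replicate 3, at passage 75, differed from replicate 1 in 6062 of 16059 genes (37.7%), with 3092 higher and 2970 lower. Passage 75 against passage 74 in replicates 3 and 2 gave 745 genes (4.66%). Against both passage 74 numbers at once, 39 genes were called for passage 75 (0.244%), of which 2 rose and 37 fell, and 2873 had an unadjusted p below 0.05. The 2 risen genes were GADD45A (log2 0.33, adjusted p = 0.025) and RAD54L, a motor protein of homologous recombination (log2 0.29, adjusted p = 0.044). RAD54L had 43.6, 41.1, 35.7 and 35.8 CPM at passage 75, against 33.8, 34.7, 33 and 30.5 CPM at passage 74. RAD54L lies outside the naming rule and was chosen after its values were seen.

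**Figure D4:**
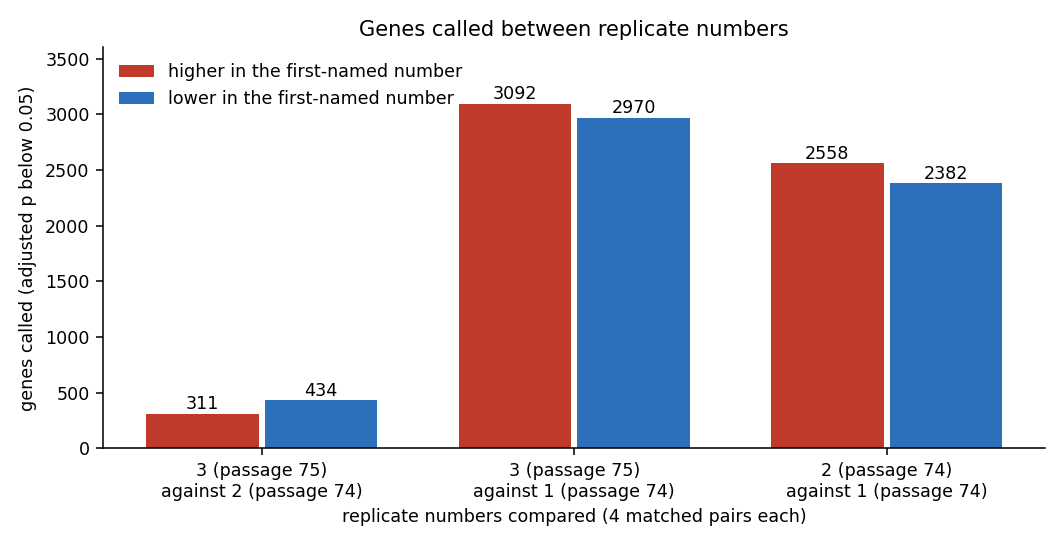
Number of genes called (vertical axis) higher (red) or lower (blue) in the first-named number of each comparison of replicate numbers, with libraries matched by condition. Replicate 3 (passage 75) against replicate 2 (passage 74) gave 745 genes, replicate 3 against replicate 1 gave 6062, and replicate 2 against replicate 1, both from passage 74, gave 4940.

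The fallen genes called against both passage 74 numbers included IFI30 (log2 -0.72, adjusted p = 2.3e-04), MGAM (log2 -0.41, adjusted p = 0.0095), AMN (log2 -0.35, adjusted p = 0.0095), CEACAM1 (log2 -0.39, adjusted p = 0.014), MS4A8 (log2 -0.71, adjusted p = 0.0098), the lysosomal protease CTSD (log2 -0.17, adjusted p = 0.032), APOB (log2 -0.32, adjusted p = 0.030), APOC3 (log2 -0.35, adjusted p = 0.033) and F10 (log2 -0.38, adjusted p = 0.044). MTRNR2L loci made up 5 of the 39, the plasma list 3, the brush border list 3 and the lysosomal list 2, while over all genes tested 0.244% were called here. All 39 were among the 745 called genes, and these lists were assembled after the values were seen. Their counts therefore only describe the calls, and near-identical MTRNR2L loci are not separate evidence. CD74, the invariant chain of MHC class II, was among the 39. It had 22.3, 23.1, 24.9 and 27.6 CPM at passage 75, against 31.8, 28.98, 34 and 34.2 CPM at passage 74. These are values of one comparison, and CD74 was chosen after its values were seen. In this comparison the median was 0.15 for the S phase list and -0.25 for the mitosis list.

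For several groups the difference between the numbers of passage 74 was larger than that between passages, or had the other sign. Of all 16038 genes tested there, 2558 were called higher and 2382 lower in replicate 2 than in replicate 1. The mitosis list had 28 of 28 genes called lower in replicate 2 than in replicate 1 (median -0.62), while 12 of its genes rose in passage 75 against passage 74 of replicate 2 (median 0.09). TOP2A averaged 742 CPM at passage 75 and 691 CPM at passage 74 in replicate 2, and 1069 CPM in replicate 1, so replicates 3 and 2 both lay below replicate 1. The cholesterol list had 14 of 21 genes lower in replicate 2 than in replicate 1 (median -0.12). SST averaged 5.48 CPM at passage 75 and 4.05 CPM at passage 74 in replicate 2, against 29.8 CPM in replicate 1. Beta-cell transcription factors had 14 of 21 genes higher in replicate 2 than in replicate 1 (median 0.14), and MAFA averaged 52.2 CPM in replicate 1. In ribosome biogenesis 18 of 20 genes were higher in replicate 2 than in replicate 1 (median 0.31).

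In other groups replicate 2 lay between replicates 3 and 1. The counts below stand against 2558 higher and 2382 lower of all 16038 genes in replicate 2 against replicate 1. The lysosomal list had 29 of 55 genes lower and 2 higher in replicate 2 against replicate 1 (median -0.11), and the plasma list had a median of -0.22 with 10 lower. G6PC2 averaged 126 CPM at passage 75 and 87.8 CPM at passage 74 in replicate 2 and 21.9 CPM in replicate 1 (log2 2.00, adjusted p = 4.6e-21 for replicate 2 against replicate 1). VTN averaged 14.6 CPM at passage 75 and 24.5 CPM at passage 74 in replicate 2 and 48.2 CPM in replicate 1 (log2 -0.98, adjusted p = 1.5e-13). IFI30 and GADD45A differed in this respect, with replicate 1 means of 34.6 and 34.2 CPM close to those of replicate 2 (log2 -0.03, adjusted p = 0.74 for IFI30 and log2 -0.07, adjusted p = 0.40 for GADD45A). The numbers carry no order of time that the labels state.

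**Figure D5:**
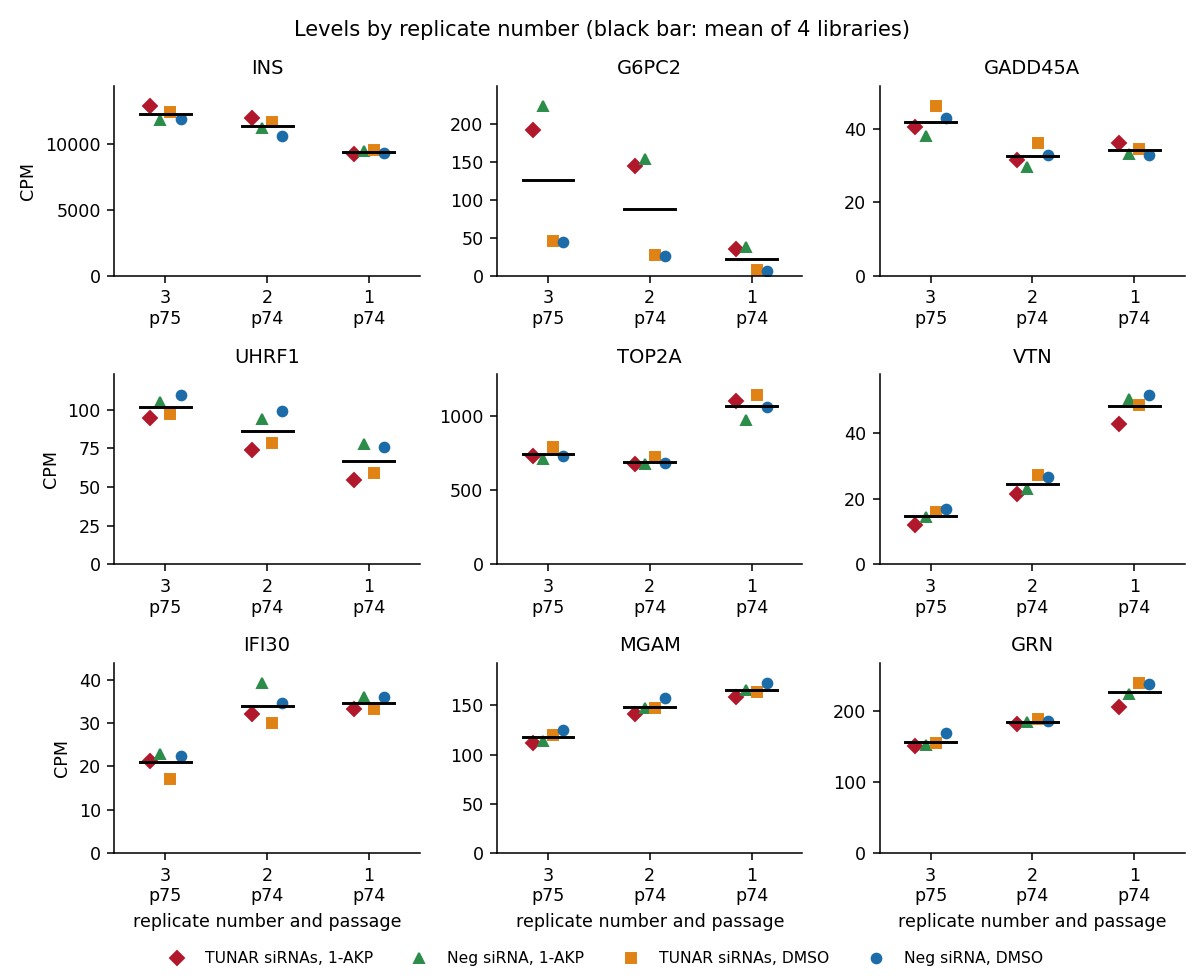
CPM (vertical axes, from 0) of 9 genes in replicate 3 (p75, passage 75), replicate 2 (p74, passage 74) and replicate 1 (p74), from left to right, with one point per library, coloured by condition, and a black bar at the mean of 4 libraries. G6PC2 is highest and VTN lowest in replicate 3, whereas TOP2A is highest in replicate 1.

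Genes were called on each chromosome examined, while the share called and the balance of risen and fallen genes differed between gene classes. Across 23 chromosomes the median change lay between -0.02 and 0.02 on the log2 scale, single pairs gave chromosome medians between -0.03 and 0.03, and the share of genes called ran between 1.67% and 6.0%. Calls grew more frequent with level, at 0.563%, 1.91%, 3.78%, 5.63% and 11.4% in 5 equal bins of mean log2 CPM, lowest first. In 5 equal bins of gene length the share called lay between 3.59% and 6.19%. Long noncoding RNA genes had 16 risen and 5 fallen of 1531, transcribed pseudogenes 10 and 4 of 486, and protein-coding genes 284 and 416 of 13840.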

How the data were processed

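Polyadenylated RNA of 12 EndoC-βH1 libraries was sequenced, with no strand marking stated. The authors deposited expected counts per gene, which are estimated read counts, and FPKM, which are scaled by gene length and library total, per the file headers. Per the submitters' processing notes, the builds were GRCh37 and hg19 and the tools BWA, Bowtie and RSEM, and versions are not given in the sources used here. Genes that a file does not list were taken as 0, and expected counts were rounded. Of 21508 identifiers 21386 were matched to symbols.

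The 8 libraries of replicates 3 and 2 were fitted in edgeR 4.0.16 under R 4.3.3, with condition and passage as terms, TMM scaling (factors 0.990 to 1.01) and filterByExpr (minimum count 10, minimum total 15), which kept 15995 genes. Residual degrees of freedom were 3 and the common biological coefficient of variation was 2.18%. The median prior degrees of freedom were 41, so p-values and SE rest more on the spread shared across genes than on a gene's own pairs. SE is the absolute log2 fold change divided by the square root of the test's F. Quasi-likelihood tests were adjusted by Benjamini-Hochberg over all genes tested at 0.05. Printed CPM use TMM factors over all 12 libraries, while marker sums, the marker levels printed before the scaling is introduced, and GCG use library totals alone. Differences between treatments and between siRNAs were tested as interactions, and the same model compared replicates 2 and 3 with replicate 1. Libraries of one condition were matched by label, and the replicate number could not serve as a block because it is the factor compared.

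Genes were named by a rule: 12 genes whatever their result, of which GCG was not tested; the 12 called genes of largest change in each direction, with log2 CPM averaging at least 2 and all pairs moving one way; up to 3 called members of each list; and up to 5 genes of each interaction. Genes discussed beyond the rule are further members of the lists, markers or a ribosomal RNA gene, or are said to have been chosen after their values were seen. Some genes that the rule names are not reported here. The comparison, its members and 31 gene lists were chosen with earlier results of these data known, and 7 further lists were added after the values were seen, so neither kind is independent support. Of 600 entries of the 31 lists 574 were matched to symbols, and of 192 entries of the 7 lists 189 were matched. The fits were tested on simulated data. Alternatives were DESeq2 1.42.0, limma 3.58.1 on log2(FPKM + 0.1), other scalings and filters, other sets of libraries, and each pair left out. Promoter sequences are RefSeq's for GRCh38.p14. No 2 libraries of a condition were copies of each other, with chi-square values per degree of freedom between 2.31 and 2.75 for replicates 3 and 2. Library totals were between 15852991 and 15986834 expected counts.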

Additional observations from a re-analysis of the deposited data

Results flagged for a closer look

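For 12 of 107 named genes the log2 difference of passage 75 minus passage 74 in 1 pair stood apart from the other 3 by Dixon's test at its 95% critical value, and chance alone flags about 1 in 20 groups of 4. In the TUNAR siRNAs, 1-AKP pair EMC3-AS1 differed by 0.63, against 0.17 to 0.23 in the others, ANXA13 by -0.24, against -0.61 to -0.55, and PDX1 by -0.044, against 0.022 to 0.030. In the negative siRNA, DMSO pair ALYREF differed by 0.31, against 0.16 to 0.18, GADD45A by 0.38, against 0.35 to 0.36, and GRN by -0.14, against -0.28 to -0.26. In the negative siRNA, 1-AKP pair BAX differed by -0.012, against 0.17 to 0.20, H2BC12, a histone gene, by -0.32, against -0.16 to -0.13, and MS4A8 by -0.73, against -0.62 to -0.60. In that pair F10 differed by -0.33, against -0.25 to -0.24, and MYO7B by -0.32, against -0.38 in each of the others. SPDYE2B, a member of a family of near-identical copies, differed by 5.48 in the TUNAR siRNAs, DMSO pair, against 0 to 0.65.

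The passage contrast differed most clearly between conditions at loci with near-identical copies, antisense partners, read-through transcripts or counts of 0, whose fitted differences depend on the prior count and are no bounds. Between 1-AKP and DMSO the log2 difference was 19.2 for MAGEA2B (adjusted p = 3.5e-21), -7.56 for PLGLB2 (adjusted p = 1.6e-14), -13.8 for GRAPL-AS1 (adjusted p = 5.8e-13), -16.4 for LIMS3 (adjusted p = 5.8e-13) and 15.98 for C4B_2 (adjusted p = 6.0e-12). Between TUNAR siRNAs and negative siRNA it was -15.97 for C4B_2 (adjusted p = 8.5e-06), 3.50 for SNX15 (adjusted p = 9.8e-10), 3.81 for ATP6V1G2-DDX39B (adjusted p = 1.0e-04), 7.97 for SPDYE2B (adjusted p = 6.0e-04) and -4.25 for ARL2-SNX15 (adjusted p = 6.4e-04). SNX15 and ARL2-SNX15 share exons and carried opposite signs.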

How the results depend on the processing

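The count of called genes differed between tools and between sets of libraries. Against 745, DESeq2 called 216, or 179 without its independent filtering (added after the data were seen). limma on log2(FPKM + 0.1) called 66, 45 with a pseudocount of 1 and 7 without a filter, and edgeR called 0 without the condition block (729 at an unadjusted p below 0.05). The fit of 12 libraries gave 458, passage 75 against both passage 74 replicates 39, and leaving out 1 pair 319 to 581. Pairs of DMSO alone gave 266, of 1-AKP 274, of negative siRNA 153 and of TUNAR siRNAs 231. Other scalings, other minimum counts, the fit without robust estimation and the fit without doubtful loci gave 536 to 878. The causes of these changes were not tested, and the fits with pairs left out hold fewer libraries. No paired analysis was possible with the replicate number as the pairing variable because the replicate number is the factor compared.

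The difference between 1-AKP and DMSO gave 3 genes in DESeq2, 6 with 12 libraries and 6 without doubtful loci, against 30, and that between siRNAs gave 3, 5 and 4, against 16. For replicates 2 and 3 against replicate 1, DESeq2 called 2346 and 3047. Of 2157 values of named genes under alternatives, 1318 kept direction and side of the threshold, 814 lost the call, 5 gained it and 20 changed sign. Against both passage 74 replicates the log2 fold change was -0.18 for IAPP, -1.63 for SST, -0.29 for CCNB1, -0.25 for TOP2A, -0.21 for TPX2, -0.22 for NCAPH, -0.11 for TXNRD1, -0.027 for SREBF1, -0.024 for H2AZ1, 0.072 for SLC30A8, 0.0016 for CPA1 and 0.057 for NKX6-1. NKX6-1 ranged from -0.024 to 0.017 with 1 pair left out and was at 0.025 with 1-AKP pairs and 0.0044 with negative siRNA pairs. TUNAR ranged from -0.034 (without the TUNAR siRNAs, 1-AKP pair) to 0.13 and was at -0.059 with DMSO pairs and -0.076 with negative siRNA pairs. PDX1 was at -0.0074 with 1-AKP pairs and -0.010 with TUNAR siRNAs pairs. At this depth, the lowest of 5 equal bins of genes by level had 0.563% called.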
